A study of Caenorhabditis elegans with 2 samples.

Results

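The 261 microRNA genes of the Caenorhabditis elegans nuclear genome were examined for summits of DMD-8 chromatin immunoprecipitation. They are every nuclear gene of biotype miRNA in the Ensembl annotation of assembly WBcel235 (ce11), 261 of 46890 nuclear genes. Each gene was given a window from 1000 bp upstream of its annotated 5′ end to 200 bp past its 3′ end on its own strand. DMD-8 belongs to the DM domain transcription factors, a family named after Doublesex and MAB-3. The single group of samples consisted of 2 biological replicates of whole L4 larvae of strain OP775, aged 48.5 hours and staged by L1 starvation after bleaching. These worms carried the integrated transgene wgIs775, in which dmd-8 is fused to TY1, EGFP and 3xFLAG, with an unc-119(+) marker in the unc-119(tm4063) mutant, and chromatin was recovered with an antibody against GFP. The values therefore describe the tagged transgene product, averaged over all cells of the animals, and enrichment that any immunoprecipitation would show at a region cannot be told apart from DMD-8 signal. No list from untagged or untreated worms was analysed here, so genes are compared with other genes and not between conditions. The lists do not give the number of reads behind a peak, so depth is unknown, and intervals of shares cover counting error only.

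A microRNA is a short RNA cut from a hairpin precursor, which itself lies in a longer primary transcript. Loaded into an Argonaute protein, it pairs through its seed, bases 2 to 8, with messenger RNAs and lowers their output, and genes with the same seed form a family. In C. elegans the first microRNAs found, lin-4 and let-7, time larval development, and other families act in embryos, neurons and muscle. The annotated 5′ end of most of these genes is the end of the hairpin and not the start of transcription, so a window upstream of it may miss a distant promoter. The median annotated length was 95 bp, and only 4 genes exceeded 150 bp, among them let-7, which is annotated as a transcript of 1732 bp.

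The mature sequences of the families with the most summits are shown first, because members of a family were grouped by seed. They are written 5′ to 3′, with the seed in capitals. Positions come from the RefSeq annotation and letters from the RefSeq sequence of the same assembly. The 6 genes of the mir-51 family share the seed ACCCGUA, on the 5′ arm in mir-51 to mir-53 and on the 3′ arm in mir-54 to mir-56. Of these genes 4 had a summit in the authors' conservative list, against 6.13% of all microRNA genes. Of those 4, mir-54 to mir-56 share a single summit, so they are not separate cases.
mir-51 (5′ arm, chrIV:11026074-11026096, minus strand): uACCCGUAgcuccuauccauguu
mir-52 (5′ arm, chrIV:14034024-14034047, plus strand): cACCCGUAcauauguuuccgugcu
mir-53 (5′ arm, chrIV:11027653-11027676, minus strand): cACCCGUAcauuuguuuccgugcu
mir-54 (3′ arm, chrX:13145011-13145034, minus strand): uACCCGUAaucuucauaauccgag
mir-55 (3′ arm, chrX:13144842-13144864, minus strand): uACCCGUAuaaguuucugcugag
mir-56 (3′ arm, chrX:13144706-13144727, minus strand): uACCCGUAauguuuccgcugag

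The mir-58 family is related to bantam of Drosophila. The seed GAGAUCA is shared by 6 genes, of which mir-80 and mir-82 had a conservative summit, while mir-58.1 carries GAGAUCG. The members with the highest signals were as follows.
mir-80 (3′ arm, chrIII:8865285-8865307, minus strand): uGAGAUCAuuaguugaaagccga
mir-81 (3′ arm, chrX:2431138-2431159, plus strand): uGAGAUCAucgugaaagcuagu
mir-82 (3′ arm, chrX:2435273-2435294, minus strand): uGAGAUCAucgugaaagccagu
mir-58.1 (3′ arm, chrIV:3233314-3233335, plus strand): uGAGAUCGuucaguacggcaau

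Other genes described below are listed with the arm that names the gene's product, or the only arm annotated. The seed of mir-61 is that of mir-44, mir-45 and mir-247. The seed of mir-250 occurs in 4 genes and that of mir-238 in 3, and lin-4 shares its seed with mir-237.
mir-61 (3′ arm, chrV:11770076-11770096, minus strand): uGACUAGAaccguuacucauc
mir-250 (3′ arm, chrV:11769937-11769956, minus strand): aAUCACAGucaacuguuggc
mir-124 (3′ arm, chrIV:11871798-11871818, plus strand): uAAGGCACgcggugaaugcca
mir-238 (3′ arm, chrIII:8867343-8867365, minus strand): uUUGUACUccgaugccauucaga
mir-4936 (3′ arm, chrIII:3249218-3249238, plus strand): uGCUUUGUggcuuugcuggua
mir-4930 (5′ arm, chrIV:2398674-2398695, plus strand): gGCUGCCUagggggcuggcuag
lin-4 (5′ arm, chrII:5902269-5902289, plus strand): uCCCUGAGaccucaaguguga

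Of the 261 microRNA genes 16 (6.13%, exact 95% interval 3.54% to 9.76%) had a summit of the conservative list in the window, against 5.12% of all nuclear genes under the same rule. The summit is the position of highest signal in a peak. The conservative list holds the 1537 peaks that the authors kept from both replicates by the irreproducible discovery rate (IDR), a measure of how well peak ranks repeat. The 16 genes shared 13 distinct summits, since mir-54, mir-55 and mir-56 lie under a single summit and mir-61 and mir-250 under another. Windows of 66 genes overlapped that of another microRNA gene. When overlapping windows were joined, 12 of 219 loci (5.48%) held a summit.

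The share at microRNA genes lay near that at all genes in the gene window and above that at protein-coding genes when windows were of equal length. In the gene window the share was 6.27% for protein-coding genes, whose windows are longer. In windows from 1000 bp upstream to 200 bp past the 5′ end, 6.13% of microRNA genes held a conservative summit, against 2.55% of the 19973 protein-coding genes and 3.39% of all nuclear genes. The same windows held a summit for 63.6% of tRNA genes, 25.7% of snoRNA genes and 17.1% of snRNA genes. The broad ncRNA class was at 5.98%, near the microRNA genes, lincRNA genes at 3.09% and piRNA genes at 0.365%. The 15363 piRNA genes, at 0.384% in the gene window, lower the share over all nuclear genes under either window. Per length, microRNA windows held 43.6 conservative summits per Mb (13 in 0.298 Mb), against 15.3 per Mb of the nuclear genome. These shares are descriptions, since no test between gene classes was made.

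**Figure D1:**
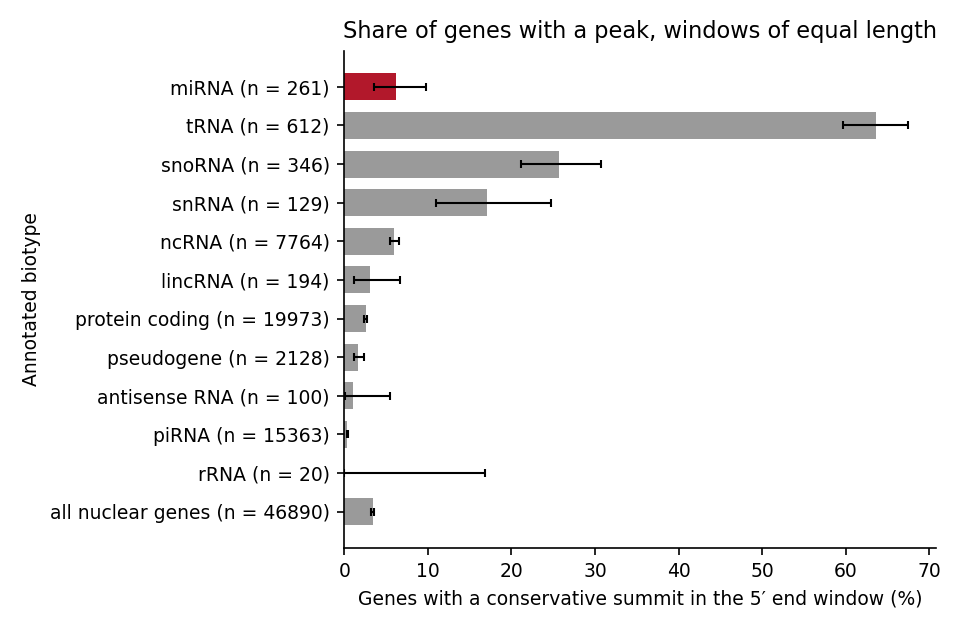
Percent of genes of each annotated biotype with a summit of the conservative list from 1000 bp upstream to 200 bp past the 5′ end, with microRNA genes at the top and all nuclear genes at the bottom. Bars are shares and lines exact 95% intervals for counting error. The microRNA bar (6.13%) lies above protein-coding genes (2.55%) and far below tRNA genes (63.6%).

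The microRNA summits were of middling rank. Their signal, the authors' value from the peak caller, ran from 67.6 to 155.9 with a median of 85.7, against a median of 90.6 over all conservative peaks. Over the 1101 conservative peaks more than 200 bp from a tRNA, snoRNA or snRNA gene the median was 84.8. By rank they stood between 216 and 1436 of 1537, and 6 of 13 were above the list's median signal. Measured from the nearest 5′ end among the genes whose window holds it, 12 summits lay upstream, 10 of them within 500 bp, and 1 lay inside the gene. The GC content of 101 bp around the summit ran from 40.6% to 67.3% with a median of 53.5%, against a median of 50.5% over all conservative summits.

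The strongest summit at a microRNA gene was that of mir-51, at chrIV:11026060-11026339. The mir-51 family is needed for embryonic development. The signal was 155.9 in the pooled list, 92.2 in replicate 1 and 60.1 in replicate 2, and the summit lay 88 bp upstream of the hairpin. It was in both replicates' own thresholded lists, and it ranked 207 of the 82083 ranked peaks of replicate 1 and 527 of the 72371 of replicate 2. Where 3 signals are given below without labels, they are those of the pooled list, replicate 1 and replicate 2 in that order. Some microRNA genes had no summit in the conservative list or in the optimal list, the authors' other combined list. Their replicate values are the highest in the window and can come from another summit than the pooled one. The nearest coding 5′ end, of hrg-5, was 3228 bp away.

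The other members of the family comprised 3 genes under a shared conservative summit and a pair with none. A summit in an intron of F09A5.3 on the opposite strand, at chrX:13145294-13145573, lay 340 bp upstream of mir-54, 510 bp upstream of mir-55 and 647 bp upstream of mir-56. Its signal was 95.7 in the pooled list, 48.8 in replicate 1 and 38.4 in replicate 2, and it was in the own list of replicate 1 only. These 3 hairpins lie 71 and 39 bp apart. At mir-52 the signal was 83.1 in the pooled list, 62.0 in replicate 1 and 24.2 in replicate 2, which ranked 536 and 16584. The summit was thus high in replicate 1 and far lower in replicate 2. Its IDR was 0.04, and it was in the optimal list but not in the conservative list. At mir-53, whose hairpin lies 1480 bp from that of mir-51, the signals were 30.5, 16.8 and 13.8, low in both replicates.

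The cluster on the X chromosome held a second summit. F09A5.15, annotated as mir-55b on the strand opposite mir-55, had a summit 400 bp upstream at chrX:13144290-13144569, 1004 bp from the summit shared by mir-54 to mir-56. The signal was 85.7 in the pooled list, 42.0 in replicate 1 and 45.4 in replicate 2, and it was in neither replicate's own list. Both summits lie in an intron of the same host gene.

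In the mir-58 family, whose members are among the abundant microRNAs of the worm, mir-80 stood highest. Its summit at chrIII:8865451-8865730 lay 224 bp upstream, with a signal of 122.7 in the pooled list, 51.3 in replicate 1 and 75.4 in replicate 2. It was in the own list of replicate 2 and not in that of replicate 1. At mir-82, in an intron of gid-2, the summit chrX:2435349-2435628 lay 135 bp upstream with signals of 84.8, 40.9 and 43.6. Its neighbour mir-81, which faces it 4078 bp away, had 81.4, 30.9 and 47.9 at a summit 16 bp upstream. That summit was in the optimal list only, with an IDR of 0.0131.

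The remaining mir-58 members had lower signals. At mir-58.1 the highest signals in the window were 37.4 in replicate 1 and 35.6 in replicate 2. The pooled signal was 69.7, at a summit 367 bp upstream. Its IDR of 0.0102 in the pooled ranked list was just above the 0.01 that no peak of the conservative list exceeded there, while the summit shared by mir-61 and mir-250 was just under it at 0.00959. At mir-58.2 and Y73B6A.17, which share a summit, the pooled signal was 37.1, with 24.3 in replicate 2 and no summit in the ranked list of replicate 1. At mir-2209.1, with the same seed, it was 42.3.

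**Figure D2:**
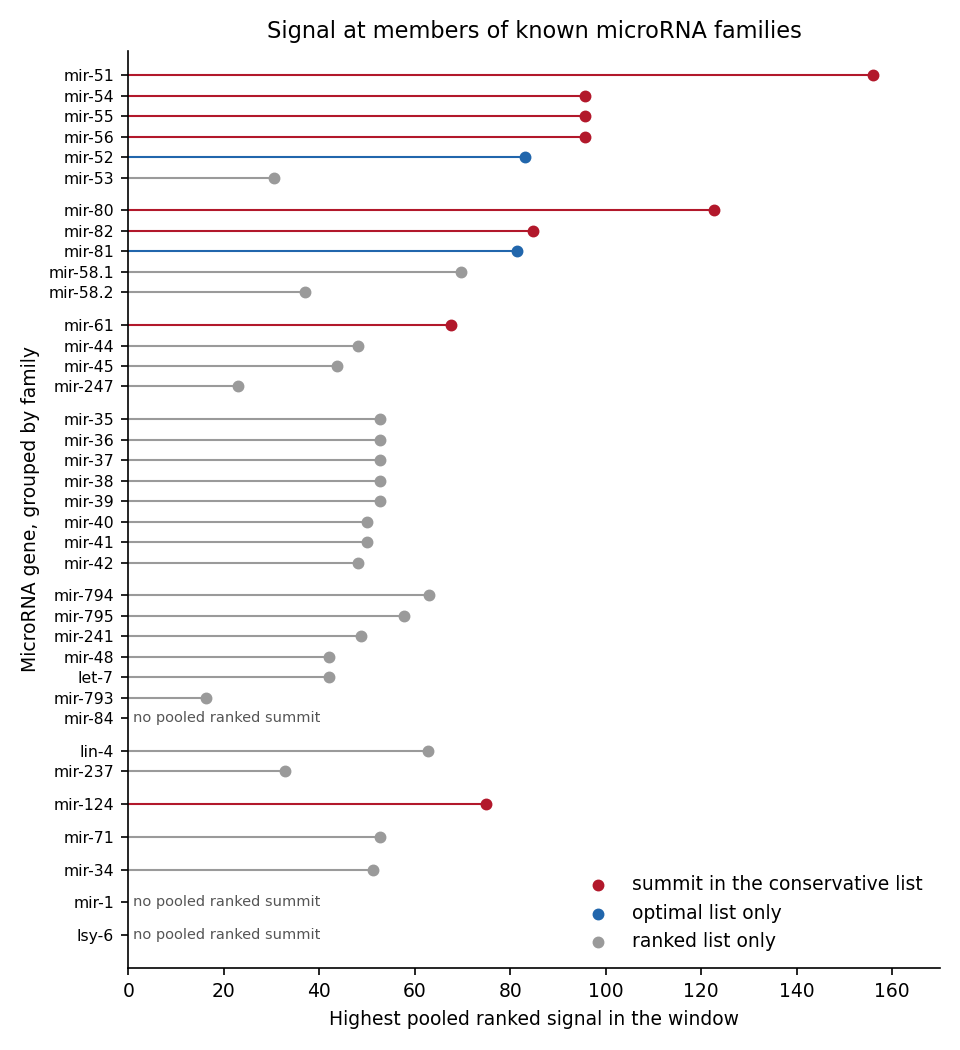
Highest signal of a pooled ranked summit in the window of each member of 11 families or single genes named from their known roles, grouped by family and ordered by signal within it. Red marks a summit of the conservative list, blue of the optimal list only and grey of the ranked list only; mir-51 (155.9) and mir-80 (122.7) stand highest.

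A lone hairpin on chromosome III, mir-4936, had nearly as strong a summit as mir-51. The peak chrIII:3249088-3249367 had a signal of 151.9 in the pooled list, 78.1 in replicate 1 and 75.4 in replicate 2, and it ranked 323 in each ranked list. It was in both replicates' own lists and was the only conservative summit inside a microRNA gene, 77 bp past the 5′ end. The 5′ end of nduf-9, which encodes a subunit of mitochondrial complex I, lay 653 bp away, so the summit also fell in that promoter window.

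The chromosome III cluster of mir-80 also held a summit for mir-238. The hairpins of mir-80 and mir-238 lie 1960 bp apart on the same strand. The summit chrIII:8867969-8868248 lay 684 bp upstream of mir-238, with signals of 93.1 in the pooled list, 55.0 in replicate 1 and 35.5 in replicate 2. A weaker summit 171 bp upstream, with a signal of 82.4, was in the optimal list but not in the conservative list. The next hairpin, mir-90, lies 6561 bp beyond mir-238 and had 77.1 in the pooled list with an IDR of 0.0321.

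At 5 further summits the signal was between 67.6 and 75.6, and none of them was in a replicate's own list. They belong to mir-61 with mir-250, mir-124, mir-1830, mir-5549 and mir-50, the last of which is given with its chromosome below. The peak chrV:11770038-11770317 lay 22 bp upstream of mir-61 and 163 bp upstream of mir-250. The gene mir-61 acts in vulval cell fate, where it represses vav-1. Its signals were 67.6 in the pooled list, 33.8 in replicate 1 and 42.3 in replicate 2, and the 5′ end of F55A11.4 lay 289 bp away. At mir-124, which is expressed in sensory neurons and lies in an intron of the channel gene trpa-1, the summit chrIV:11871235-11871514 was 363 bp upstream with signals of 74.9, 50.2 and 31.5. The replicates differed there in rank, 970 in replicate 1 against 5774 in replicate 2.

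A pair of these summits lay close to the 5′ end of a coding gene. The peak chrII:4372435-4372714 was 668 bp upstream of mir-1830 and 50 bp from the 5′ end of its host paic-1, a gene of purine synthesis. Its signals were 75.6 in the pooled list, 36.5 in replicate 1 and 42.0 in replicate 2. The peak chrIII:6971966-6972245 was 21 bp upstream of mir-5549 and lay in the promoter windows of rfc-4, a replication factor gene, and eef-1A.1, a translation elongation factor gene. Its signals were 74.9, 38.0 and 36.2. With those of nduf-9 and F55A11.4, 4 of the 13 summits fell in a coding promoter window. The matching share over all conservative summits is not given here. Whether such a summit belongs to the microRNA or to the coding gene cannot be told apart from these lists.

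No conservative summit in a microRNA window lay at an annotated small structural RNA gene. Of the 13 summits, 0 had a tRNA, snoRNA or snRNA gene within 200 bp (exact 95% upper limit 24.7%), against 28.4% (436) of all 1537 conservative summits. Of the 261 microRNA windows, 249 had no such gene within 200 bp, so no summit in them could be near one. The 0 of 13 is thus largely set by where the windows lie and does not show a lack of such summits. The nearest such gene to any of the 13 summits was 9970 bp away and the nearest annotated tRNA pseudogene 27066 bp away. The other 12 microRNA windows lay within 200 bp of such a gene, 6 of a tRNA and 6 of a snoRNA gene. Of these 12, 0 held a conservative summit (upper limit 26.5%), against 6.13% of all microRNA genes, so few windows give no ground to set them apart. All 12 held a pooled ranked summit, with signals from 12.1 at mir-1819 and mir-2212 to 65.0 at mir-1829.3.

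Summits at tRNA genes lay just outside some windows. Between a window's edge and 2000 bp from a microRNA gene lay 12 conservative summits that fell in no microRNA window, and 7 of them were within 200 bp of a tRNA gene. At mir-237, the lin-4 paralogue, summits at tRNA genes lay 1236 bp upstream (signal 152.8) and 303 bp past the 3′ end (75.3). The farthest upstream summit inside a window was the one 684 bp from mir-238, and the next outside was one at a tRNA gene 1147 bp upstream of mir-235 (174.8).

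The letters under the 2 highest microRNA summits are shown because both hold a B box match. The B box is a promoter element inside tRNA genes that the RNA polymerase III machinery recognises, and it was searched on both strands as GGTTCGA, then any 2 bases, then CC. Each run is the 121 bp centred on the summit, on the strand of the microRNA gene, with the match in capitals.
Summit at mir-51 (chrIV:11026140-11026260, minus strand): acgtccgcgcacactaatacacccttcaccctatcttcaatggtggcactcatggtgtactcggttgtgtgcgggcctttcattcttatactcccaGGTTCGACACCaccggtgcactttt
Summit at mir-4936 (chrIII:3249168-3249288, plus strand): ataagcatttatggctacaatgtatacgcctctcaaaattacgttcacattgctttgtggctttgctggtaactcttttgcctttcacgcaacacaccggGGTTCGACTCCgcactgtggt
The match lay 41 bp from the summit at mir-51 and 45 bp from it at mir-4936, and 0 of the other 11 summits had a match on either strand. Over all conservative summits 12.4% (191 of 1537) had a match, and over the 1101 more than 200 bp from a tRNA, snoRNA or snRNA gene 1.36% (15) did. The nearest annotated tRNA pseudogene was 335925 bp from the mir-51 summit and 57508 bp from the mir-4936 summit.

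Most matches away from tRNA, snoRNA and snRNA genes had no conservative summit near them. The nuclear genome held 1760 matches, of which 1348 were more than 200 bp from a tRNA, snoRNA or snRNA gene. Of those, 36 (2.67%) had a conservative summit within 200 bp. The share of genome positions in general with a summit that near is not given here, so whether matches lie near summits more often was not tested. Of the 7 microRNA genes with a match in the window, the 5 others had no conservative summit. They were mir-1829.3 and mir-8207, whose windows lie near tRNA genes, and mir-4937, mir-4814 and mir-4806, the last with 3 matches. At mir-4806 the ranked summit nearest to a match had a signal of 26.7 and the nearest conservative summit was 88734 bp away.

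A different short sequence, CCGCCC, occurred at 3 of the 13 summits, against 8.07% of all conservative summits, counted on both strands in 121 bp. These summits are those of mir-80, of mir-54 to mir-56 and of mir-82, and they are shown with the matches in capitals, which read GGGCGG where the match is on the other strand. None of these 3 windows holds a B box match.
Summit at mir-80 (chrIII:8865531-8865651, minus strand): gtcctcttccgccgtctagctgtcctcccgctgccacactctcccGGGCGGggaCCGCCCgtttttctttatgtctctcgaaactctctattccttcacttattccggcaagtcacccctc
Summit at mir-54 to mir-56 (chrX:13145374-13145494, minus strand): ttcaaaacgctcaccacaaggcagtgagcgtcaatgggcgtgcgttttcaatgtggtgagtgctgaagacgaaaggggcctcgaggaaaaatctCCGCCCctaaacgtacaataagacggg
Summit at mir-82 (chrX:2435429-2435549, minus strand): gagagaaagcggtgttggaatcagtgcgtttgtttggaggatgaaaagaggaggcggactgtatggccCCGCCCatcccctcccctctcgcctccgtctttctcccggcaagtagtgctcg
The repeat GAGAGA, counted on both strands, occurred at 3 of 13 summits (mir-80, mir-82 and mir-5549), against 15.0% of all. The palindrome CACGTG occurred at 0 of 13, against 3.06% of all. ACANTGT, which holds the core of the DM domain site, occurred at 1 of 13, that of mir-4936, against 2.54% of all. These are counts of letters in a window, and no count was tested.

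The summit of mir-4930 lay in a tandem repeat. The peak chrIV:2398398-2398677 was in an intron of Y38F2AR.10 on the opposite strand, 114 bp upstream of the hairpin. Its signals were 92.3 in the pooled list, 49.9 in replicate 1 and 31.9 in replicate 2. The 121 bp at the summit held GGCTGCC 6 times, the same heptamer with which the mature mir-4930 begins, and had the highest GC content of the 13 summits, 67.3%. No capitals are used here, since the summit window lies outside the hairpin. Whether reads map uniquely in this repeat was not tested.
Summit at mir-4930 (chrIV:2398478-2398598, plus strand): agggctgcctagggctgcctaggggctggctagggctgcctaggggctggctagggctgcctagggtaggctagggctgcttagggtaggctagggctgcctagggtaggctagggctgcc

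Most microRNA genes had only weaker summits. The pooled ranked list, which keeps 95232 peaks of any IDR, had a summit in the window of 191 microRNA genes (73.2%), against 55.3% of all nuclear genes. Both replicates' ranked lists had a summit at 156 (59.8%), against 49.3% of all nuclear genes, and 34 genes had none in any ranked list. The shares over all genes include 15363 piRNA genes, of which 11.9% had a pooled ranked summit and 7.67% one in both replicates. In protein-coding genes the 2 shares were 78.3% and 73.7%, and in the ncRNA class 73.4% and 60.8%. The highest pooled ranked signal per gene had a median of 42.0 over these 191 genes, with a range from 5.31 to 155.9, against 45.0 over all nuclear genes with a ranked summit. In windows of equal length at the 5′ end the median was 41.5 over microRNA genes, against 36.0 over all nuclear genes. The gene windows had a median length of 1295 bp for microRNA genes, against 3227 bp for coding genes.

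Ranked summits were densest next to the hairpin. In 250 bp bins from 2000 bp upstream to 1000 bp past the 5′ end, the bin just upstream of the 5′ end held 1471 ranked summits per Mb (96 summits, median signal 36.7), and the other bins 1027 to 1272. The nuclear genome held 950 per Mb. Neighbouring genes of a cluster share summits, so these counts are not independent.

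**Figure D3:**
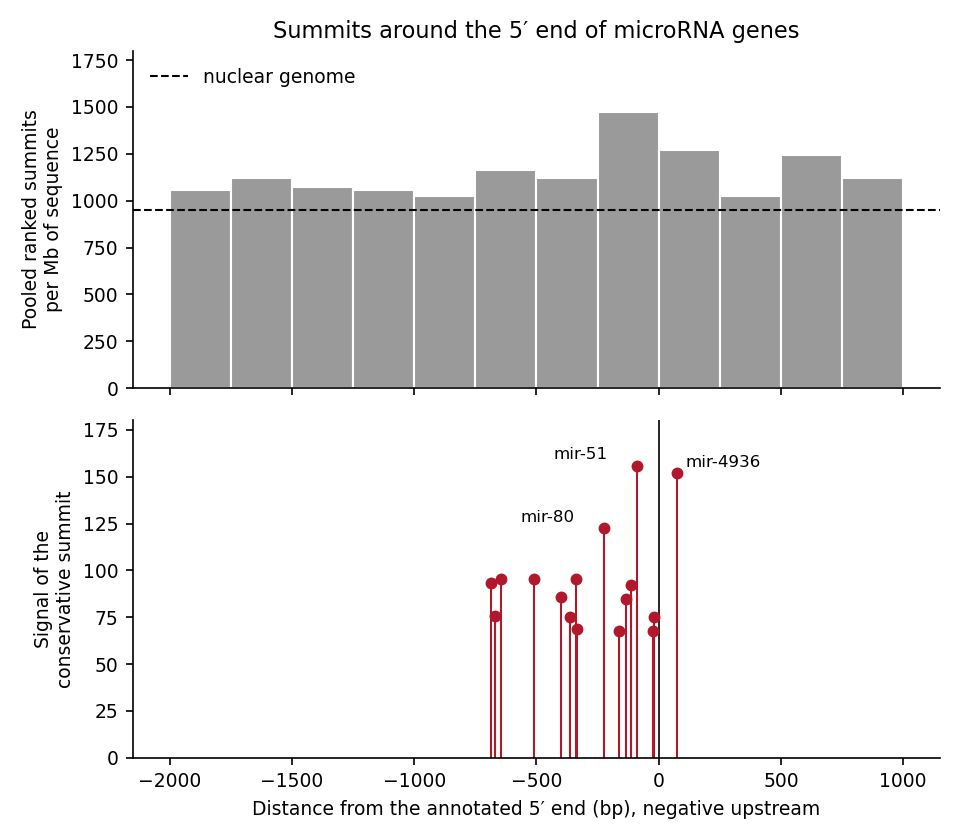
Summits by distance from the annotated 5′ end of the 261 microRNA genes, negative upstream. The upper panel gives pooled ranked summits per Mb in 250 bp bins with the genome value (950) dashed, and its highest bar (1471) is just upstream of 0; the lower panel gives the signal of each conservative summit for each gene that holds it.

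Intronic microRNA genes held a conservative summit in 9 of 97 cases (9.28%, exact 95% interval 4.33% to 16.9%), against 7 of 152 (4.61%, 1.87% to 9.26%) outside protein-coding genes. The intervals overlap, and the difference was not tested. Its direction reversed with the list of replicate 2 alone, to 0% of intronic genes against 1.97% of those outside coding genes, and with 200 bp on either side of the gene, to 2.06% against 3.29%. Within introns the share was 4 of 30 on the strand opposite the host and 5 of 67 on the host's strand. The summit shared by mir-54 to mir-56 gives 3 of those 4, so the opposite-strand count rests on 2 summits. Of the 12 genes that overlap a coding exon, 0 held a conservative summit (upper limit 26.5%). The share over all microRNA genes was 6.13%, so these few genes give no ground to set them apart.

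Median signals were also higher at intronic genes. The highest pooled ranked signal had a median of 46.9 over 80 intronic genes, against 37.5 over 101 genes outside coding genes. It was 50.1 on the opposite strand, 46.0 on the same strand and 47.9 at the exon-overlapping genes. On the opposite strand, mir-35 to mir-39 share a summit of 52.6, mir-40 and mir-41 one of 50.1, and mir-54 to mir-56 one of 95.7. These medians thus count some summits more than once, and the genes are not separate measurements. The 3 highest signals, at mir-51, mir-4936 and mir-80, were nevertheless all outside coding genes. The part of the host genes in these values was not tested.

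**Figure D4:**
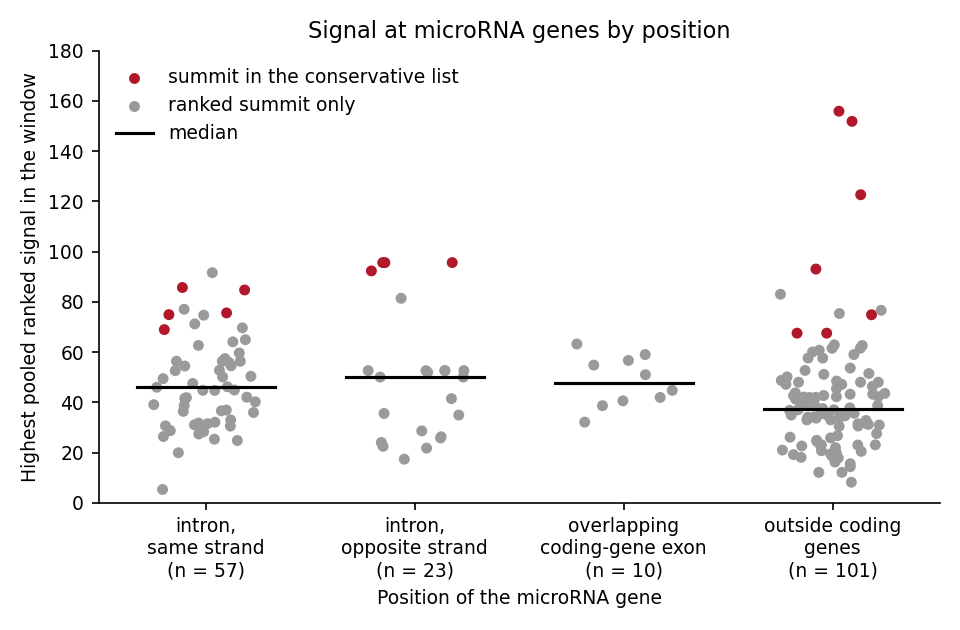
Highest pooled ranked signal in the window of the 191 microRNA genes that have one, by position in or outside protein-coding genes. Each point is a gene, red with a conservative summit, and black lines are medians (46.0, 50.1, 47.9 and 37.5 from left to right). Neighbouring genes can share a summit, so points are not all separate measurements.

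By chromosome, conservative summits were found at 1 of 33 genes on I, where mir-50 is the gene concerned, and at 1 of 49 on II. There were 4 of 27 on III, 3 of 50 on IV, 2 of 28 on V and 5 of 74 on X. These are counts of genes, and mir-54 to mir-56 on X share a summit, as do mir-61 and mir-250 on V. The share over all nuclear genes of each chromosome is not given here, so the counts do not set a chromosome apart. At mir-50 the summit chrI:1738162-1738441 overlapped an exon of the talin gene tln-1, 333 bp upstream of the hairpin. Its signals were 69.0 in the pooled list, 39.9 in replicate 1 and 34.6 in replicate 2.

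Few microRNA genes were in the own thresholded lists of both replicates. In the authors' own thresholded lists of single replicates, 7 microRNA genes had a summit with replicate 1 (2.68%, against 2.68% of all nuclear genes) and 3 with replicate 2 (1.15%, against 2.35%). Only mir-51 and mir-4936 were in both. Of the 13 conservative summits 9 were in neither replicate's own list. All 13 stood within the top 6.66% of ranked peaks in replicate 1 and the top 7.98% in replicate 2. Conservative peaks were kept for ranks that repeat, so these high ranks follow from that choice. Spearman's rho between the replicates' highest signals was 0.34 over the 156 genes that both ranked lists cover, against 0.52 over all 23103 nuclear genes with both. Over the 140 of the 156 genes without a conservative summit it was 0.14. Taking out genes kept for ranks that repeat can lower rho by itself. The matching value over all nuclear genes without a conservative summit is not given here. These are correlations across genes of the same 2 libraries, and neighbouring genes share summits.

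**Figure D5:**
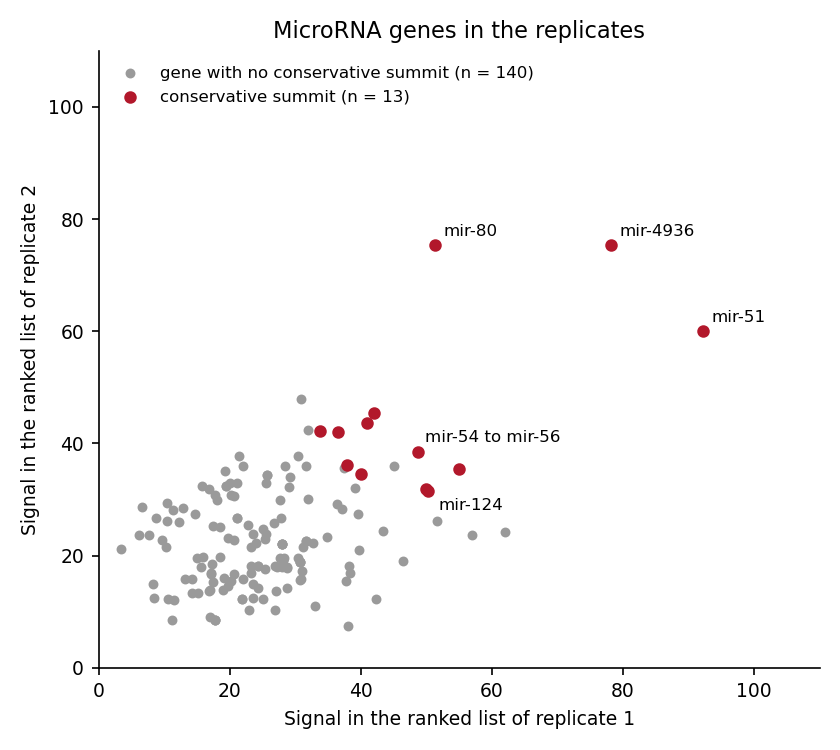
Signal in the ranked list of replicate 2 against that of replicate 1. Red points are the 13 conservative summits and grey points the 140 genes without one that have a summit in both lists, each at its highest signal. Conservative peaks were kept for ranks that repeat, so their place at the upper right is set by that choice; mir-51, mir-4936 and mir-80 stand apart from the rest.

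The optimal list, the authors' other list from combined replicates, gave 14 genes (5.36%, against 5.19% of all nuclear genes). It held 11 of the 16 genes and added mir-52, mir-81 and mir-8186.2. It left out mir-61, mir-250, mir-124, mir-50 and mir-5549. At mir-8186.2, 322 bp upstream, the signals were 75.4 in the pooled list, 51.6 in replicate 1 and 26.1 in replicate 2.

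Of the genes without a conservative summit the highest pooled ranked signal was that of mir-4929. It was 91.7, 397 bp upstream in an intron of E01G4.3, and its IDR was 0.062. The highest signal in that window was 56.9 in replicate 1 and 23.7 in replicate 2. After mir-52 and mir-81 came mir-90, mir-8189 (76.7), mir-8186.2, mir-2214 (74.7) and mir-253 (71.3). Next were mir-58.1 and mir-1829.3. All but mir-1829.3 (65.0) had a pooled signal above the lowest at a conservative microRNA summit (67.6). The IDR values of these 10 genes ran from 0.0102 to 0.294 in the pooled ranked list, where every conservative peak had 0.01 or less. The optimal list goes with another ranked list, not used here, so its members can have higher values.

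The let-7 and lin-4 families, with well-studied roles in developmental timing, had conservative summits at 0 of 7 and 0 of 2 genes. With 6.13% of all microRNA genes holding one, so few genes give no ground to set these families apart. The gene lin-4 represses lin-14 and lin-28 and lies in an intron of F59G1.4. Its highest signals were 62.7 in the pooled list, 43.4 in replicate 1 and 24.4 in replicate 2. The pooled summit lay 360 bp upstream, with an IDR of 0.0702. At mir-237 the highest signals were 32.8, 10.3 and 21.6. At let-7, which represses lin-41, they were 42.0, 26.9 and 18.1. Among its family, mir-48 had 42.0, mir-241 had 48.7, mir-793 had 16.2, mir-794 had 62.9 and mir-795 had 57.6 in the pooled list. At mir-84 no pooled ranked summit was found, though each replicate's ranked list had one, at 20.6 and 16.7.

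The embryonic mir-35 family had a conservative summit at 0 of 8 genes, with pooled signals from 48.0 to 52.6. The genes mir-35 to mir-41 form a cluster in an intron of Y62F5A.9 and share summits, so these 8 values are not 8 separate measurements. The same holds for the 0 of 8. Beside the 6.13% of all microRNA genes, it gives no ground to set this family apart. In the mir-44 family mir-61 alone had a conservative summit, and mir-44, mir-45 and mir-247 had 48.0, 43.8 and 23.0 in the pooled list. The value at mir-44 comes from the same summit as that of mir-42 of the mir-35 family.

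Single genes with known roles varied as widely. At mir-34, studied in stress responses, the pooled signal was 51.1, and at mir-71, studied in lifespan, 52.8. At mir-1, a muscle microRNA, and at lsy-6, which sets left-right asymmetry of a pair of taste neurons, no pooled ranked summit was found, and only replicate 1 listed one, at 13.9 and 15.8. A low or missing summit in whole larvae does not show that a gene expressed in few cells lacks the protein.

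Genes with a seed shared by another microRNA gene had a conservative summit in 10 of 109 cases (9.17%). For genes with a seed of their own it was 6 of 151 (3.97%), and over all microRNA genes 6.13%. The median pooled ranked signal was 47.2 over genes with a shared seed, against 35.6 over genes with a seed of their own. Genes with a shared seed can share a summit, as at mir-54 to mir-56 and at mir-61 with mir-250. Both the count and the median of these genes, which include the mir-35 cluster, thus hold some summits more than once. The difference was not tested.

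Protein-coding genes of the microRNA pathway were described in the same way. Of 25 genes found in the annotation, 2 (8.0%, exact 95% interval 0.984% to 26.03%) had a conservative summit from 1000 bp upstream to 200 bp past the 5′ end, against 2.55% of coding genes. They were vig-1, whose product is part of the RNA-induced silencing complex, and nhl-2, a TRIM-NHL cofactor of that complex. At vig-1 the peak chrII:1320483-1320762 lay 414 bp upstream, with signals of 90.9 in the pooled list, 64.3 in replicate 1 and 30.1 in replicate 2. At nhl-2 the peak chrIII:4899764-4900043 lay 819 bp upstream, with 96.1, 58.6 and 31.7. Both were in the own list of replicate 1 and not in that of replicate 2.

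The optimal list added ain-1, a GW182 protein gene, and hrpk-1, giving 4 genes. The other pathway genes varied widely. The Drosha gene drsh-1 (65.5), the Argonaute gene alg-1 (70.1), alg-2 (32.6) and dcr-1 (26.2) had ranked summits only, and pash-1 had no ranked summit. Over the 20 pathway genes with a ranked summit the median pooled signal was 49.6, against 34.5 over all coding genes with one. Of 11 genetically studied targets, such as lin-14, lin-41 and hbl-1, 0 had a conservative summit (upper limit 28.5%). With 2.55% of coding genes holding one, so few targets give no ground to set them apart. A ranked summit was found at 8 targets, with a median of 46.5. The share of coding genes with a ranked summit in this window is not given here. The gene lin-28 is in both the pathway and the target list.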

How the data were processed

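The 7 peak lists used were deposited by the authors for 2 replicates, singly and combined, on ce11, per the deposited notes. The signal per peak is the authors' value from the peak caller and is not scaled between lists. The score was set by the authors from the irreproducible discovery rate (IDR), and the ranked lists carry the deposited −log10 IDR as a score. No source used here names the aligner or the caller. A control file is listed in the notes as an input and was not analysed here.

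Genes came from Ensembl release 115, symbols, mature microRNAs and sequence from RefSeq. A gene held a peak when a summit lay in its window. Intervals are exact (Clopper-Pearson, 95%). With a single group there was no test. The members and gene lists were chosen with earlier results of these data known. Named were all genes with a conservative summit, the next 10 by pooled ranked signal, and the families and lists in the text. Other lists, windows, overlap rules and thresholds were tried as alternatives. The names ntl-1 and mir-1834 were not matched. The window count was tested on simulated data, where 40 of 40 planted summits were found among 261 windows and 0 of 40 just outside. Python 3.11.15, pandas 2.3.3, numpy 2.4.6, scipy 1.17.1 and matplotlib 3.10.9 were used.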

Additional observations from a re-analysis of the deposited data

How the results depend on the processing

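Of 61 recomputed values 42 stayed near the main one and 19 moved. With a single replicate's list the share of microRNA genes with a summit was 1.15% to 2.68%, the intronic share 0% to 4.12% and the pathway count 0 to 2, while the optimal list gave a pathway count of 4. With 500 bp upstream the median ranked signal was 38.6 and the share in both ranked lists 47.1%. With 2000 bp upstream these were 46.1 and 72.4%, and the pooled ranked share was 78.5%. With 200 bp on either side the share with a conservative summit was 2.68%, the intronic share 2.06%, the pooled ranked share 57.5%, the share in both ranked lists 34.1% and the median signal 34.7. With peaks at or above the median signal the share with a conservative summit was 3.07% and the intronic share 4.12%, and with an IDR of 0.05 or less the ranked share was 11.1%. The share outside coding genes was 1.97% with replicate 2 alone and 3.29% with 200 bp on either side, so intronic genes were then lower. The share of summits near a tRNA, snoRNA or snRNA gene was 15% with 2000 bp upstream and 7.14% with peak overlap of 1 bp. Leaving out windows near such genes, and the 5′ end window, which was chosen after seeing the data, moved no value beyond counting error. No paired analysis was possible because the samples form a single group. The lists give no read depth, so weak summits cannot be weighed against it, and intervals cover counting error only.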
